A study of Mus musculus with 6 samples.

Results

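The immediate early response genes described here are 10 genes, Fos, Fosb, Jun, Junb, Atf3, Egr1, Nr4a1, Dusp1, Ier2 and Ier3, out of 12968 genes tested in mouse lung. They were chosen by name, with earlier results of these data known, so shares set beside those of all genes are descriptions. The array measures them with 12 probes, found by matching the probes to RefSeq. Junb and Ier2 have 2 probes each. All 10 passed the filter on dim probes, and all 12 probes were well above background and unsaturated on every array. Lung total RNA of C57BL/6 mice was hybridised to 6 single-colour Agilent arrays, 2 for each genotype. The genotypes are hCD2-T-bet tg/tg, hCD2-T-bet tg/wt and WT, and no other allele or agent is named in the labels. T-bet is the T helper 1 transcription factor encoded by Tbx21, and the human CD2 promoter drives the transgene in T cells. The series concerns pulmonary alveolar proteinosis, a filling of the air spaces with surfactant, in mice that overexpress T-bet. Age, sex and the number of animals behind each sample are not given in the sources used here, so every p-value here covers only array-to-array spread within a genotype, which may be technical.

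Immediate early genes are transcribed within minutes of a growth factor, cytokine, antigen or stress signal, without the need for new protein. Mitogen-activated protein kinases act on serum response factor (SRF) and its partners and on the cyclic AMP response element (CRE) binding protein CREB at their promoters, and the transcripts are short-lived. Their products are mostly transcription factors: Fos and Jun family proteins pair through leucine zippers into the AP-1 complex, which directs later genes, while others such as Dusp1 switch the kinases off again.

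Short windows before the gene starts were searched for the letters of some of these elements and of a few others. RefSeq's promoter sequences (GRCm38.p6), as used here, held 8 of the 10 genes. Egr1 and Ier2 were missing, so no motif could be looked for in them. The 250 bases before the start were searched on both strands. The motifs were the CRE palindrome (TGACGTCA), the CRE core (TGACG, 2 of which lie in each palindrome), the AP-1 site (TGANTCA), the EGR site (GCGNGGGCG), the TATA box (TATAAA), and the CArG box of SRF and the NF-kB site by name. The CRE core was found in 6 of the 8 windows and in 17.8% of all 32851 windows of that length. The palindrome was found in the Dusp1 window at positions -143 to -136, and in 1.55% of all windows. An NF-kB site was found before Fos, Fosb and Ier3, against 3.9% of all windows, and an EGR site before Fosb and Nr4a1, against 4.7%. The TATA box was found before Fos (12.4% of all windows). No window of the 8 held the letters of an AP-1 site or a CArG box, which occur in 6.75% and 1.47% of all windows. Sites further upstream than 250 bases, or with other letters, were not searched for, so a gene without a match here may still have the element. Windows of 4 genes are shown, 5′ to 3′, because Fos and Junb shifted most between the transgenic genotypes, Nr4a1 fell furthest in tg/tg, and Dusp1 holds the palindrome; capitals mark motif matches. They lie on GRCm38.p6 at chr12:85473640-85473889, plus strand, for Fos, at chr8:84978749-84978998, minus strand, for Junb, at chr15:101266596-101266845, plus strand, for Nr4a1, and at chr17:26508473-26508722, minus strand, for Dusp1.
Fos: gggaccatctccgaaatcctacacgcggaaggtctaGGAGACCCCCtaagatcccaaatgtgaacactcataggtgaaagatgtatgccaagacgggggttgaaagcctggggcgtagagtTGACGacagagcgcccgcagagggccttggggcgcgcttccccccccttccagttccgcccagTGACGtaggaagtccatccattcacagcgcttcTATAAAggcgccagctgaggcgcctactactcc
Junb: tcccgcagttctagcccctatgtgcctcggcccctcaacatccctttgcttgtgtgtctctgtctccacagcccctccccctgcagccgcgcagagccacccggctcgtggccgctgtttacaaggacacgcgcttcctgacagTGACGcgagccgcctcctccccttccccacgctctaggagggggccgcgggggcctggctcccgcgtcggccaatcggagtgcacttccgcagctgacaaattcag
Nr4a1: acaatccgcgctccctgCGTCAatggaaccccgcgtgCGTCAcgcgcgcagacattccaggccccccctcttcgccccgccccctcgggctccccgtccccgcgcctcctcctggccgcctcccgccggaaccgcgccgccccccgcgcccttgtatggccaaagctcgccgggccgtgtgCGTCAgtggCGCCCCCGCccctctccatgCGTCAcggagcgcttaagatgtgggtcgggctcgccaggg
Dusp1: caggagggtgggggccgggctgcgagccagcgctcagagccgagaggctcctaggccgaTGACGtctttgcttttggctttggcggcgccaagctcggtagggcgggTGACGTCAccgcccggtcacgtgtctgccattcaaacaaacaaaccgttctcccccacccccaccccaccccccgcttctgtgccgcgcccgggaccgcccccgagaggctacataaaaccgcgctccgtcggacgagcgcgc
The CRE cores begin at -233, -213, -69 and -40 before Nr4a1 and at -129 and -66 before Fos. A relation of the motifs to the levels was not tested. A match of letters is a description and does not show that a factor binds there.

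**Figure D1:**
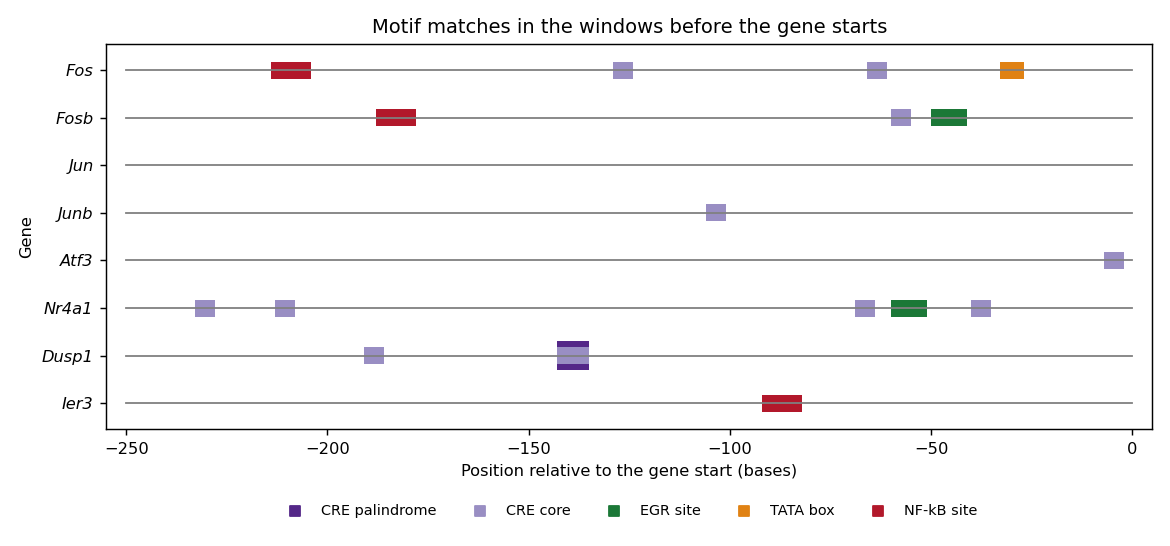
Motif matches in the 250 bases before the starts of 8 genes, with the position relative to the start in bases on the x axis and 1 gene per row; the colour of a box gives the motif. CRE cores lie in 6 of the 8 rows, the palindrome lies before Dusp1 at -143 to -136, and the Jun row is empty.

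The arrays' 75th percentiles lay between 794 and 1204 intensity units, and the share of probes well above background ran from 62.0% to 66.8%. Levels are given as log2 signal relative to that percentile, so that 0 is a signal equal to it; levels of different genes come from different probes and are not set against each other. Array number limits the precision. Across genes, which are not independent replicates, arrays of a group correlated at 0.996 to 0.997, tg/wt with WT arrays at 0.990 to 0.991 and tg/tg with WT arrays at 0.921 to 0.922. Arrays of a genotype held different values and are counted as the labels give them, as separate samples. Tbx21 was at 3.25 and 3.26 in tg/tg, 1.30 and 1.34 in tg/wt and -0.70 and -0.71 in WT, in the order of the labels. All 10 lung epithelium markers, among them Sftpc, passed the filter, with 2 higher and 5 lower in tg/tg than in WT and summed levels of 1549.6 to 1754 in tg/tg, 1440.2 to 1698 in tg/wt and 1681 to 1746 in WT, in units of the 75th percentile. The tg/tg and WT arrays lay on slide 1 and the tg/wt arrays on slide 2, so that in both comparisons with tg/wt the slide and the genotype cannot be told apart.

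In tg/tg lungs the immediate early genes divided. Junb, Ier3, Atf3, Fos and Fosb were higher than in WT lungs, by 1.38- to 2.23-fold, and Nr4a1, Jun, Dusp1 and Ier2 were lower, by 1.22- to 2.81-fold. Egr1 did not pass the test. Of the 10 genes 5 were thus higher and 4 lower (limma, Benjamini-Hochberg adjusted p under 0.05). The background is high in this comparison, where 74.7% of all genes tested passed, 33.8% higher and 40.8% lower, so that 9 of 10 is close to it. The median size of the difference, whatever its sign, was 0.78 for the 10 genes and 0.42 for all genes. The signed median was 0.17 for the 10 genes and -0.05 for all genes.

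In tg/wt lungs, which are heterozygous for the transgene, the same genes were mostly lower than in WT lungs. Fos fell furthest, 1.91-fold, followed by Dusp1 (1.51-fold), Junb (1.38-fold), Ier3 (1.30-fold), Nr4a1 (1.23-fold), Ier2 (1.21-fold) and Atf3 (1.15-fold). That makes 7 of the 10 genes lower, where 14.6% of all genes tested were lower and 27.9% passed in either direction. By limma 0 of the 10 were higher, and 0 were higher at an unadjusted p under 0.05, while 13.4% of all genes were higher. The median difference was -0.29 for the 10 genes and -0.00 for all genes, and the median size was 0.29 for the 10 genes and 0.13 for all genes. The count depends on single arrays. Without 1 array fewer genes also passed over all genes, as given in the closing section. In those fits the differences lay at -0.32 to -0.28 for Nr4a1 and -0.28 to -0.26 for Ier2. They lay at -0.24 to -0.17 for Atf3 and -0.45 to -0.30 for Ier3. The calls of Nr4a1 and Ier2 ended without any one of the tg/wt 1, tg/wt 2, WT 1 and WT 2 arrays. That of Atf3 ended without tg/wt 1, WT 1 or WT 2, and that of Ier3 without tg/wt 2, WT 1 or WT 2. Over all alternatives the adjusted p lay at 0.00161 to 0.0735 for Nr4a1, 0.00192 to 0.0796 for Ier2, 0.00510 to 0.114 for Atf3 and 0.00315 to 0.106 for Ier3. The calls of Fos, Junb and Dusp1 held under every alternative run, with adjusted p up to 0.0108, 0.0174 and 0.0263.

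Between the transgenic genotypes, 6 of the 10 genes passed as higher in tg/tg lungs and 2 as lower, both against tg/wt, beside 74.2% of all genes past the threshold, 34.0% higher and 40.2% lower. Junb and Fos were both 3.09-fold higher, Ier3 2.79-fold and Atf3 2.47-fold. The WT arrays enter both comparisons with WT and the tg/tg and tg/wt arrays enter 2 each, so the 3 comparisons are not independent of each other.

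**Figure D2:**
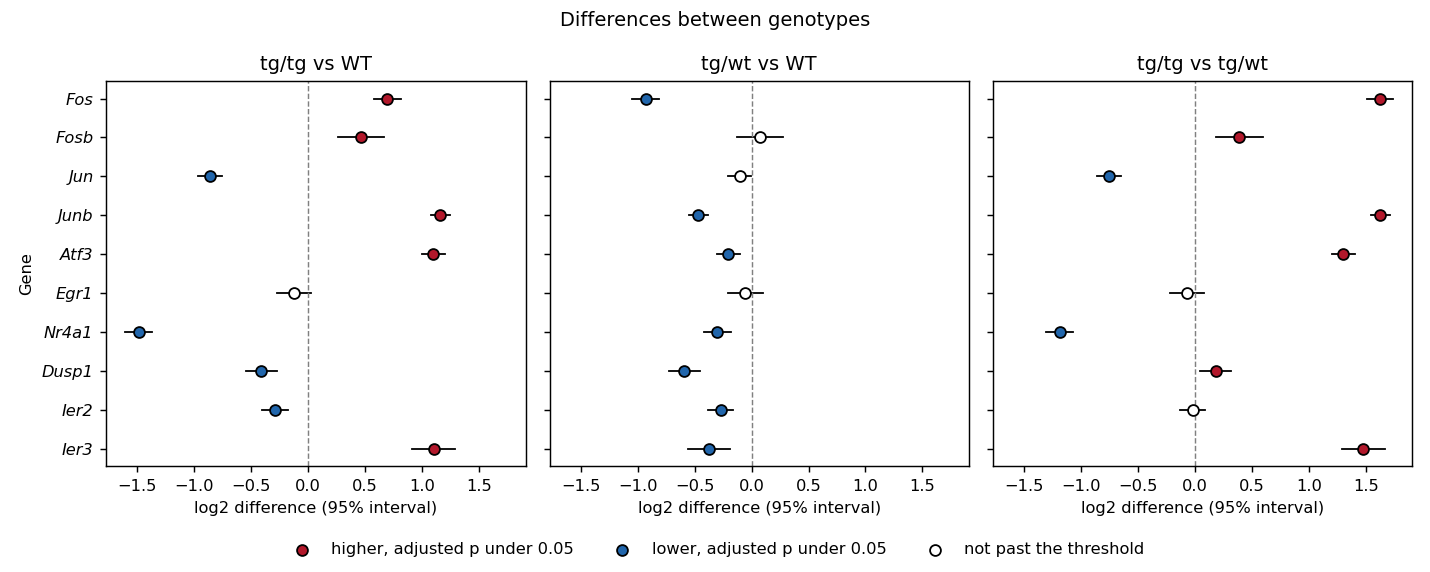
Log2 differences of the 10 genes (x axis) with 95% intervals from limma for tg/tg vs WT, tg/wt vs WT and tg/tg vs tg/wt; a red point passed the threshold as higher, a blue point as lower, and a white point did not pass. The points split to both sides for tg/tg vs WT (5 higher, 4 lower), while all 7 coloured points for tg/wt vs WT lie below 0.

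Among the AP-1 subunits, Fos, which cannot pair with itself and needs a Jun partner, had levels of 0.83 and 0.92 in tg/tg, -0.75 and -0.75 in tg/wt and 0.17 and 0.19 in WT. The 3 genotypes do not overlap, with tg/tg highest and tg/wt lowest. Among all genes tested, 87.9% did not overlap in tg/tg vs WT. The share was 72.4% in tg/wt vs WT and 87.5% in tg/tg vs tg/wt. Lack of overlap, here and for the genes below, is therefore common and sets none of them apart. Against WT, Fos was 1.62-fold higher in tg/tg (0.69 on the log2 scale with SE 0.0448; adjusted p by limma 1.16e-04) and lower in tg/wt (-0.93, limma adjusted p = 6.95e-04). The probe is printed in 10 spots, 8 to 10 of which carried no outlier mark on each array. The spots ranged from 0.79 to 0.90 and 0.88 to 0.99 on the tg/tg arrays, from -0.80 to -0.67 and -0.80 to -0.68 on the tg/wt arrays, and from 0.07 to 0.23 and 0.06 to 0.28 on the WT arrays. No spot of a genotype therefore reached those of another. The spots are repeats on the same array, so their spread leaves out much of the difference between arrays. Of 179 probes printed in 10 spots and above background on every array, 59.8% differed between the tg/tg arrays by more than 2 SE of the spots. The share was 53.6% for tg/wt and 32.4% for WT.

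Fosb, the paralogue best known from neurons, had levels of -2.49 and -2.51 in tg/tg, -2.88 and -2.90 in tg/wt and -2.85 and -3.07 in WT. The tg/tg arrays lay above the other 4, while the tg/wt arrays lay between the WT arrays. Against WT, tg/tg was 1.38-fold higher (0.46 on the log2 scale with SE 0.0781; adjusted p by limma 0.00411) and against tg/wt 1.31-fold (0.00786). The difference of tg/wt from WT was 0.07, with a 95% interval from -0.13 to 0.28.

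Jun, the partner that can also pair with itself, had levels of 2.72 and 2.77 in tg/tg, 3.53 and 3.47 in tg/wt and 3.61 and 3.60 in WT. The tg/tg arrays lay well below the other 4, and the tg/wt arrays just below WT. Against WT, Jun was 1.82-fold lower in tg/tg (-0.86 on the log2 scale with SE 0.0393; adjusted p by limma 3.46e-05), the opposite direction to Fos. Its 10 spots, 9 of them without an outlier mark on each array, ranged from 2.69 to 2.82 over the tg/tg arrays and from 3.56 to 3.65 over the WT arrays. In tg/wt the difference from WT was -0.11 (95% interval from -0.21 to -0.00294) and did not pass after adjustment (adjusted p = 0.110).

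**Figure D3:**
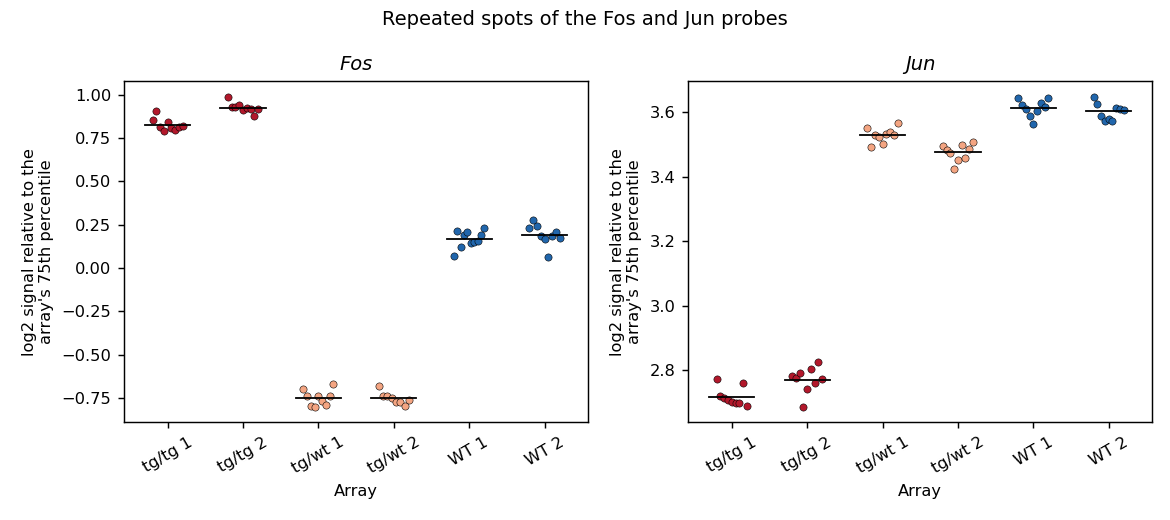
Log2 signal relative to the array's 75th percentile (y axis) of each spot of the Fos and Jun probes that carried no outlier mark, by array (x axis), with a line at the mean of the spots. The Fos spots form 3 bands with tg/tg at the top and tg/wt at the bottom. The Jun spots of the tg/tg arrays lie below all others, at 2.82 or less. Spots of an array are repeats and not separate samples.

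Junb, a Jun family member with weaker activation of its own and known for its part in T helper cell differentiation, had levels of 6.30 and 6.32 in tg/tg, 4.69 and 4.67 in tg/wt and 5.15 and 5.14 in WT on its brighter probe. The other probe gave 5.80 and 5.84 in tg/tg, 4.16 and 4.14 in tg/wt and 4.54 and 4.58 in WT. Both probes place the genotypes in the same order as Fos, with no overlap. Against WT, the brighter probe was 2.23-fold higher in tg/tg (1.16 on the log2 scale with SE 0.0323; adjusted p by limma 7.22e-06) and the other probe, fitted among all probes, gave 2.40-fold (limma adjusted p = 2.47e-05). In tg/wt it was lower than in WT by both probes (-0.47 and -0.41). In tg/tg lungs Junb and Jun thus moved to opposite sides of WT.

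Atf3, a stress-induced leucine zipper factor of the ATF and CREB family that pairs with Jun proteins, had levels of 2.83 and 2.83 in tg/tg, 1.49 and 1.56 in tg/wt and 1.74 and 1.72 in WT. Against WT, Atf3 was 2.14-fold higher in tg/tg (1.10 on the log2 scale with SE 0.0389; adjusted p by limma 1.52e-05) and -0.21 on the log2 scale in tg/wt against WT (adjusted p = 0.0220). The order tg/tg, WT, tg/wt from high to low was that of Fos and Junb.

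**Figure D4:**
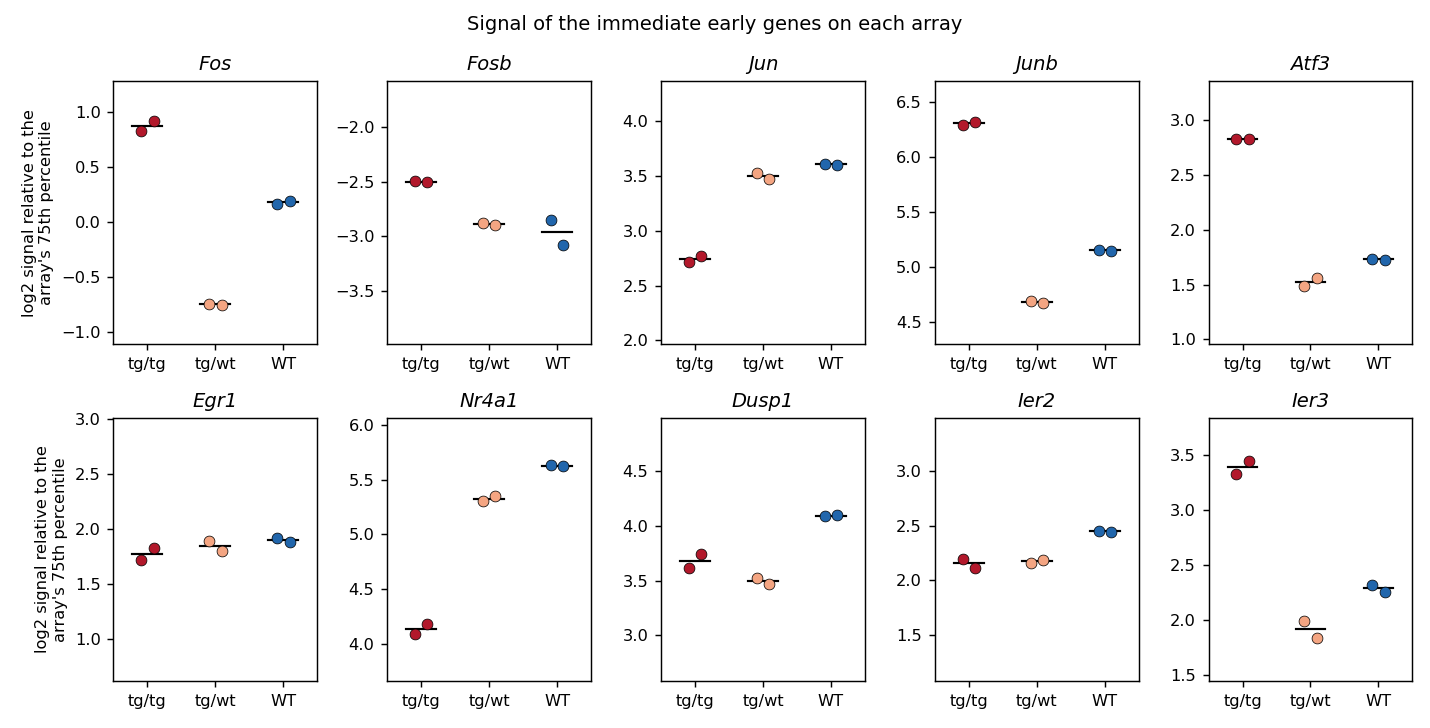
Log2 signal relative to the array's 75th percentile (y axis, the same span in every panel at different heights) of the 10 genes on the 6 arrays, by genotype, with a line at the group mean; Junb and Ier2 are shown by their brighter probe. Fos, Junb, Atf3 and Ier3 are highest in tg/tg and lowest in tg/wt, Nr4a1 and Jun are lowest in tg/tg, and Egr1 stays between 1.72 and 1.91.

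Of the other transcription factors, Nr4a1, an orphan nuclear receptor induced by antigen receptor signalling in T cells and needed for patrolling monocytes, moved furthest of the 10 in tg/tg. Its levels were 4.09 and 4.19 in tg/tg, 5.30 and 5.35 in tg/wt and 5.63 and 5.62 in WT. The genotypes do not overlap, with tg/tg lowest and WT highest. Against WT, Nr4a1 was 2.81-fold lower in tg/tg (-1.49 on the log2 scale with SE 0.0456; adjusted p by limma 9.64e-06), 2.28-fold lower when tg/tg was set against tg/wt (2.21e-05) and -0.30 on the log2 scale in tg/wt against WT (adjusted p = 0.0126).

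Egr1, the zinc finger factor through which many growth signals act on later genes, had levels of 1.72 and 1.83 in tg/tg, 1.89 and 1.80 in tg/wt and 1.91 and 1.88 in WT. The tg/tg arrays lay just below the WT arrays, and the tg/wt arrays overlapped both. The difference from WT was -0.13 in tg/tg (95% interval from -0.28 to 0.02, limma adjusted p = 0.103) and -0.05 in tg/wt (from -0.20 to 0.10, adjusted p = 0.514). Between tg/tg and tg/wt it was -0.07 (from -0.22 to 0.08).

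Dusp1, the phosphatase that removes the activating phosphates from p38 and JNK kinases, had levels of 3.62 and 3.74 in tg/tg, 3.52 and 3.47 in tg/wt and 4.09 and 4.10 in WT. Both transgenic genotypes lay below WT without overlap, with tg/wt lowest. It was 1.33-fold lower in tg/tg (-0.41 on the log2 scale with SE 0.0520; adjusted p by limma 0.00139) and 1.51-fold lower in tg/wt (-0.59, adjusted p = 0.00301). Between the transgenic genotypes the difference of 0.18 passed at limma adjusted p = 0.0276, over all alternatives 0.00758 to 0.126. That call ended with quantile normalization, where the difference was 0.09, and when only these 2 groups were fitted (limma adjusted p = 0.0559). Leaving out WT 1 or WT 2 gives that same 2-group fit. The call also ended without tg/tg 2, tg/wt 1 or tg/wt 2.

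Ier2, a nuclear protein induced together with Fos and Jun by serum, had levels of 2.20 and 2.11 in tg/tg, 2.16 and 2.19 in tg/wt and 2.45 and 2.44 in WT on its brighter probe. The transgenic genotypes overlap each other and lie below WT. It was 1.22-fold lower in tg/tg (-0.29 on the log2 scale with SE 0.0422; adjusted p by limma 0.00235) and 1.21-fold lower in tg/wt (adjusted p = 0.0137), and the difference between tg/tg and tg/wt was -0.02, with a 95% interval from -0.13 to 0.09. The dimmer probe had levels of -3.44 and -3.39 in tg/tg, -3.25 and -3.33 in tg/wt and -2.74 and -2.94 in WT. It is faint, at 73.1 to 142 intensity units where the arrays' medians lay between 76.7 and 118. Fitted among all probes, it was lower in tg/tg than in WT by 1.49-fold and in tg/wt by 1.37-fold (limma adjusted p = 0.00288 and 0.0278).

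Ier3, a regulator of cell survival known as a target of NF-kB, had levels of 3.33 and 3.45 in tg/tg, 1.99 and 1.84 in tg/wt and 2.32 and 2.26 in WT. The genotypes do not overlap, and the order is that of Fos, Junb and Atf3. Against WT, Ier3 was 2.15-fold higher in tg/tg (1.10 on the log2 scale with SE 0.0713; adjusted p by limma 1.18e-04) and -0.38 on the log2 scale in tg/wt against WT (adjusted p = 0.0222). Fos, Junb, Atf3 and Ier3 were thus all past the threshold as higher in tg/tg and as lower in tg/wt, both against WT. Of all genes tested, 33.8% were higher in tg/tg and 14.6% lower in tg/wt. The share with both calls was not counted, so whether this pattern is uncommon among all genes is not known. Both calls use the same WT arrays, and the tg/wt arrays lay alone on slide 2. For Fos and Junb the tg/wt call held in every fit that left out 1 array, while those of Atf3 and Ier3 each ended in 3 of the fits that left out an array, with limma adjusted p up to 0.114 for Atf3 and 0.106 for Ier3.

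By the median, the 2 arrays lay closer together for these genes than for all genes in tg/wt and WT, and further apart in tg/tg. The difference between the 2 arrays had a median of 0.0892 over the 10 genes in tg/tg, 0.0481 in tg/wt and 0.0165 in WT, beside 0.0673, 0.0602 and 0.0459 over all genes. In tg/tg 6 of the 10 genes differed between arrays by more than the median of all genes, in tg/wt 3 and in WT 2. By the definition of a median, as many of all genes lie above it as below. Each genotype gives a single such difference per gene, and no test was run. The largest of these differences, 0.221, was that of Fosb between the WT arrays, beside a 90th percentile of all genes of 0.200 there.

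Marker genes of several cell types moved with the genotypes, and in whole-lung RNA fewer cells of a type and less RNA per cell cannot be told apart. All 9 neutrophil markers tested were higher in tg/tg than in WT and 8 were lower in tg/wt, and their summed level, in units of the 75th percentile, was 86.1 to 86.9 in tg/tg, 14.6 to 15.0 in tg/wt and 54.1 to 55.5 in WT. That is the order in which Fos, Junb, Atf3 and Ier3 stood. All 10 endothelial markers were lower in tg/tg than in WT, with Tek 3.31-fold and Kdr 3.25-fold lower and a summed level of 113 to 115 in tg/tg, 276 to 282 in tg/wt and 311.0 to 311.3 in WT. The 8 heart muscle markers were all lower in both transgenic genotypes, with sums of 13.5 to 13.8 in tg/tg, 113 to 114 in tg/wt and 230.4 to 234 in WT, and Nppa 83.7-fold lower in tg/tg. The 6 fat markers tested were all lower in tg/tg than in WT, with sums of 3.83 in tg/tg, 23.1 to 23.5 in tg/wt and 34.8 to 36.1 in WT. Summed levels of endothelium, heart muscle and fat stood in the order of Nr4a1 and Jun. For endothelium that order in tg/wt is the sum's alone: 4 of the 10 markers were lower in tg/wt than in WT and 2 higher, with a median of -0.04, and Tek and Kdr differed by 0.02 and 0.05 without passing. T cell markers were higher in tg/tg than in WT in 9 of 9 cases (44.4 to 45.1 in tg/tg, 8.22 to 8.25 in tg/wt and 3.64 to 3.84 in WT), with Cd6 (log2 difference 4.17) and Icos (4.14) moving furthest, and monocyte and macrophage markers in 7 of 8 (551 to 597 in tg/tg, 276 to 353 in tg/wt and 314 to 319.8 in WT). In tg/wt 6 of those 8 were higher than in WT and 1 lower (median 0.67), with Ms4a7 2.47-fold and Fcgr1 1.54-fold higher, although the sums in tg/wt and WT overlap. Of 10 fibroblast and smooth muscle markers 3 were higher and 6 lower in tg/tg (259.9 to 260.5 in tg/tg, 325 to 329.7 in tg/wt and 287 to 289 in WT). The part of these cell types in the levels of the immediate early genes was not tested.

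Other genes of the pathway are read against all genes tested, of which 33.8% were higher and 40.8% lower in tg/tg vs WT, 74.7% in all, and 13.4% higher and 14.6% lower in tg/wt vs WT, 27.9% in all. Of 13 further AP-1 and leucine zipper partner genes tested, 7 were higher than in WT and 3 lower, with a median log2 difference of 0.28, so that the 10 of 13 past the threshold are close to the 74.7% of all genes. Batf2 was 10.9-fold, Batf 4.50-fold and Batf3 4.34-fold higher; these factors pair with Jun proteins in lymphocytes and myeloid cells. Fosl1, another Fos family gene, was at least 4.16-fold higher, since it was not well above background in WT. In tg/wt 3 of the 13 were higher and 3 lower (median -0.01).

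Of 14 other immediate early transcription factor genes tested, tg/tg had 7 above WT past the threshold and 6 below (median 0.22), beside 33.8% and 40.8% of all genes. In tg/wt 2 were higher and 6 lower (median -0.15), beside 13.4% and 14.6%. Egr3, Egr4 and Nr4a3 did not pass the filter on dim probes. Nfil3, a leucine zipper repressor of lymphoid and clock genes, was 6.78-fold higher in tg/tg, Myc 4.31-fold, the interferon-induced Irf1 3.98-fold and Egr2, the paralogue of Egr1 that is induced in T cells, 3.75-fold. Against WT these 4 genes went different ways in tg/wt. Egr2 (-0.38, limma adjusted p = 0.0243) and Nfil3 (-0.32, limma adjusted p = 0.0112) were lower, Irf1 was higher (0.39, limma adjusted p = 0.00342), and Myc differed by 0.20 without passing.

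Of 29 other effector and feedback genes tested, tg/tg had 14 above WT past the threshold and 7 below (median 0.23), which together is close to the 74.7% of all genes. In tg/wt 6 were higher and 10 lower (median -0.12), beside 13.4% and 14.6% of all genes. Rgs1, which dampens G protein signals in lymphocytes, was 20.1-fold higher in tg/tg, Dusp2, a phosphatase of immune cells, 10.9-fold, the kinase gene Pim1 5.41-fold and Tnfaip3, an inhibitor of NF-kB signalling, 4.95-fold. Dusp1 and Dusp2 thus stood on opposite sides of WT in tg/tg.

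Upstream of these genes, 11 of 25 genes for SRF, CREB and MAP kinase signalling were higher in tg/tg than in WT and 7 lower (median 0.12), again close to the 74.7% of all genes. In tg/wt 3 were higher and 2 lower (median 0.04), a smaller share than the 27.9% of all genes. Map3k8, a kinase of the Toll-like receptor and TNF pathways, was 2.46-fold higher in tg/tg and the ribosomal S6 kinase gene Rps6ka3 2.24-fold, while Map2k6, which activates p38, was lower by a log2 difference of -1.63 and Mapk3, which encodes ERK1, by -0.75. Of 9 stress-inducible heat shock genes tested, 7 were lower in tg/tg and 6 lower in tg/wt (medians -0.49 and -0.23), beside 40.8% and 14.6% of all genes. Hspb1 was 2.64-fold, Hsph1 2.59-fold, Hspa1a 1.88-fold and Hsp90aa1 1.62-fold lower in tg/tg than in WT. In tg/tg vs WT the largest limma adjusted p of the genes named from these lists was 3.70e-04, that of Fosl1. Over all genes the median difference was -0.05 in tg/tg and -0.00 in tg/wt, both against WT.

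**Figure D5:**
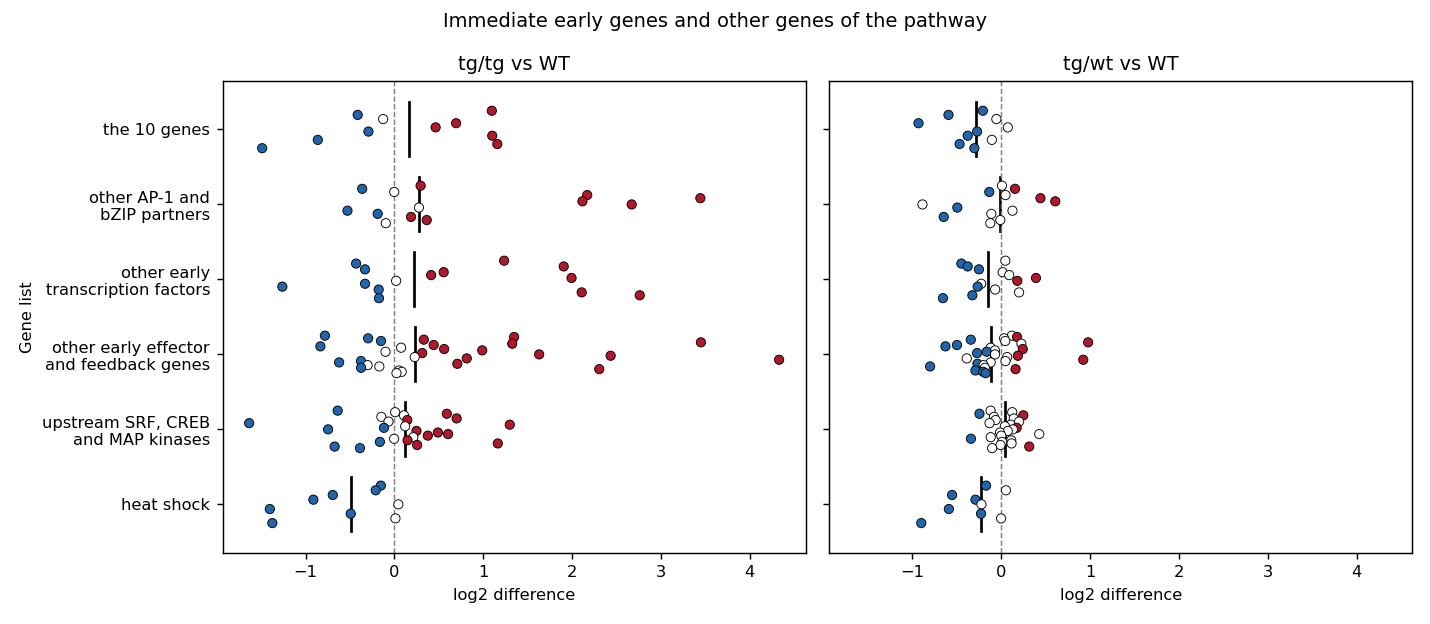
Log2 differences (x axis) of the 10 genes and of the tested genes of 5 related lists (rows), for tg/tg vs WT and tg/wt vs WT; each point is a gene, red where higher and blue where lower past the threshold and white where not, and the black line is the median of the list. In tg/tg the lists reach from Map2k6 at -1.63 to Rgs1 at 4.33, and in tg/wt the medians lie between -0.29 and 0.04.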

How the data were processed

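Per the labels' protocols, lung RNA was labelled with Cy3 by a one-colour kit. Per the file headers, the deposited intensity values come from Agilent Feature Extraction 9.5.3.1 (the submitters' processing notes name 9.1) and a mouse design on mm7; the processed intensity is background-subtracted and detrended within the array, not scaled between arrays. The deposited series table equals the background-subtracted intensity at all 45018 features. Groups come from the labels.

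Control spots and spots with an outlier mark were left out, the spots of a probe averaged (41174 probes, 22951 matched to a RefSeq symbol), and the processed intensity put on a log2 scale relative to the array's 75th percentile. Probes well above background on at least 2 of 6 arrays entered, and the brightest probe of a gene by mean stood for it, which gave 12968 genes. One model of 3 group means was fitted to all 6 arrays (limma 3.58.1, R 4.3.3; 3 residual and 1.77 prior degrees of freedom), with Benjamini-Hochberg adjustment over all genes and a threshold of 0.05. The fit was tested on simulated data. Genes not above background in a group have a bound in place of a fold. The 10 genes and the other lists were chosen with earlier results of these data known. All 10 genes are given, with up to 4 genes of each related list and, for some marker lists, the leading 1 or 2, the largest called changes in tg/tg against WT. Alternatives were normexp (offset 50) on the median signal, since the files used here hold no mean signal, with local backgrounds over 2 array medians reset, quantile normalization, median scaling, no or a stricter filter, averaging the probes of a gene, every probe singly, a variance trend, only the groups compared, slide, replicate number, the series table and leaving out each array. Promoter motifs were counted in RefSeq sequences (GRCm38.p6) and figures drawn with matplotlib 3.10.9.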

Additional observations from a re-analysis of the deposited data

How the results depend on the processing

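Over 18 alternatives the 10 genes' differences in the 3 comparisons gave 520 values, of which 497 kept their direction and their side of the threshold, 21 kept the direction but lost the call, and 2 changed sign. Outside the leave-one-out fits 338 of 340 values kept both, and the other 2 were Dusp1 in tg/tg against tg/wt, with quantile normalization (0.09, limma adjusted p = 0.126) and with only the 2 groups fitted (adjusted p = 0.0559). Not all of these values are separate checks. The filters, single probes, the variance trend, the 2-group fit and both blocks left each difference unchanged, so that only the call could change. Leaving out an array of the genotype not compared gave the same fit as taking only the 2 groups, as did the slide block. Leaving out 1 array gave 5 higher and 4 lower genes in tg/tg vs WT every time, 5 to 6 higher and 2 lower in tg/tg vs tg/wt, and 3 to 7 lower and 0 higher in tg/wt vs WT. The sign changes were Fosb in tg/wt vs WT, -0.0358 without WT 2 (range without 1 array -0.0358 to 0.185), and Ier2 in tg/tg vs tg/wt, 0.0223 without tg/tg 2 (range -0.0630 to 0.0223), neither of them past the threshold. Where a group is left with 1 array, it is assumed to vary like the other groups. Within slide 1, which is the fit with slide as a block, the counts in tg/tg vs WT stayed at 5 and 4. Deviations of same-numbered arrays correlated across genes at -0.05 for tg/tg with tg/wt, -0.05 for tg/tg with WT and 0.13 for tg/wt with WT. With 2 arrays a group and genes that are not independent, these values cannot settle whether the numbers pair the samples. With the replicate block the counts were 5 and 4, 0 and 7, and 6 and 2, the same as without it. Over all genes, 3622 passed in tg/wt vs WT, against 1396 to 4479 over the alternatives, the lowest without WT 1 (1806 without tg/wt 1, 1464 without tg/wt 2 and 1472 without WT 2). No alternative moved the median of all genes beyond -0.07 to 0.02. Precision is limited by the 2 arrays of a group, and Fosb had the largest SE of the 10 genes (0.0781).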
